A study of Homo sapiens with 40 samples.

Results

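SOX6, ZBTB20, BNC2 and PLCL1 are 4 human genes that were examined together among the 28278 gene symbols of a count table from HEK293T cells, a human embryonic kidney cell line. They were chosen by symbol, with measured values in view: a lower level after antimycin A, and a change of that response in cells given dMTS-DELE1. Their antimycin responses, and the difference of response between the dMTS-DELE1 and F137S lines, are therefore given as a description without a test. All 4 genes passed the filter on low counts, which kept 16739 genes. BNC2 differed from the other 3 in that its level was lower after antimycin in the dMTS-DELE1 line too.

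The study compared 5 lines of HEK293T cells, each given vehicle or antimycin A (40 nM, over 6 hours), with 4 libraries in each of the 10 groups and 40 in all. WT cells carried an empty vector. The other lines had been made with an sgRNA against SLC25A12, which encodes a mitochondrial carrier of aspartate and glutamate. They carried an empty vector (KO vector), SLC25A12-WT, SLC25A12-F137S, or SLC25A12-F137S together with dMTS-DELE1. The labels call the 4 libraries of each group biological replicates. They do not say what that meant, such as separate cultures, or whether a line is a single clone. The tests thus measure the spread between these libraries, which may in part be technical.

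Antimycin A blocks complex III of the respiratory chain. DELE1 is a protein that carries a mitochondrial stress signal to the kinase HRI, which phosphorylates eIF2α and starts the integrated stress response, the programme that raises translation of the transcription factor ATF4. SOX6 is an HMG-box transcription factor of the SOXD group, known for its roles in cartilage and in red blood cell maturation. ZBTB20 is a BTB and zinc finger repressor, known in liver, brain and pituitary. BNC2 is a zinc finger protein of the basonuclin family. PLCL1 resembles phospholipase C but lacks its catalytic activity, and binds protein phosphatases and GABA(A) receptor-associated proteins.

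The libraries held between 30.7 and 32.0 Mcounts (1 Mcount is 1e6 counts). Levels are given as CPM, the counts of a gene per Mcount of the library after TMM scaling. SLC25A12 stood at 38.7 ± 1.82 CPM (SD, n = 4) in WT cells in vehicle and at 3.08 ± 0.231 CPM in KO-vector cells. It stood at 38.9 ± 0.33 CPM in the libraries labelled SLC25A12-WT, the level of WT cells. These are therefore called the libraries labelled SLC25A12-WT, or the labelled libraries, and directions drawn from them rest on that label. SLC25A12 reached 1853 CPM in F137S cells and 3716 CPM in dMTS-DELE1 cells in vehicle. DELE1 stood between 45.9 and 49.7 CPM in the other 4 lines and at 5344 CPM in dMTS-DELE1 cells. The dMTS-DELE1 and F137S lines thus differed in both transcripts, and the parts of these cannot be told apart. All 10 HEK293 markers passed the filter, with a summed level of 724 to 972 CPM, here without TMM scaling. VIM alone held 349 to 491 CPM, and the lowest, LHX1, had a median of 0.394 CPM. Of 12 markers of other cells 4 passed the filter, with a summed level of 17.2 to 22.1 CPM over the list. UMOD was at 0 in every library. The fibroblast marker COL1A1 stood at 14.8 to 20.9 CPM, most of that sum. Its median of 18.4 CPM was above those of the HEK293 markers PAX2 (2.54), EYA1 (6.7) and NES (10.7).

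The 4 genes share a large genomic span. The choice did not name span, but it used a fall after antimycin and its change in dMTS-DELE1 cells. Both were more common among long genes, as given below, so the shared span is not independent of the choice. In RefSeq on GRCh38.p14, SOX6 lies on the minus strand at chr11:15966449-16738477 and spans 772.0 kb. ZBTB20 lies at chr3:114314500-115147288, on the minus strand, and spans 833.0 kb. BNC2 lies at chr9:16409503-16870670, on the minus strand, and spans 461.0 kb. PLCL1 lies on the plus strand at chr2:197804593-198149863 and spans 345.0 kb. They were longer than 99.5%, 99.6%, 98.3% and 97.0% of the 16451 tested genes that matched RefSeq. Their longest GENCODE transcripts cover 1.15%, 3.26%, 2.79% and 1.93% of those spans, so nearly all of each gene is intron. RefSeq places 16 other genes within or across these spans, none of which passed the filter, and the highest count of any of those in the table was 9 in a library.

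The sequence just before the annotated start is shown for 3 of the genes, because these promoters are where a shared response element would be looked for. SOX6 is left out, so the survey of motifs is partial. Annotated exons of SOX6 and C11orf58 cover the bases before its outermost start, and the window left lies at an internal start. The windows are from RefSeq on GRCh38.p14, are written 5′ to 3′ on the strand of the gene, and capitals mark matches to CCAAT or GGGCGG on either strand. ZBTB20 is shown at chr3:115147289-115147538, the outermost of 8 annotated starts, PLCL1 at chr2:197804343-197804592, and BNC2 at chr9:16870844-16870920, with the 173 bases nearest the start left out because an annotated exon covers them.
ZBTB20: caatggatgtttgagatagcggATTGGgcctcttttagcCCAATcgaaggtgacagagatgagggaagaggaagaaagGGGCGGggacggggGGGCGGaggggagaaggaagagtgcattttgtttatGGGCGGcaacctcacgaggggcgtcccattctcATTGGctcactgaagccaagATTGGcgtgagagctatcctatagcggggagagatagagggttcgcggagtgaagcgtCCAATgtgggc
PLCL1: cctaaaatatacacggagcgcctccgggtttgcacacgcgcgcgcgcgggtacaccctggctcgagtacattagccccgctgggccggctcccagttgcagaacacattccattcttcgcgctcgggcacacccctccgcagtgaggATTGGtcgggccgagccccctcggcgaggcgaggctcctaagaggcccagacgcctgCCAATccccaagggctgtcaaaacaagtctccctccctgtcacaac
BNC2: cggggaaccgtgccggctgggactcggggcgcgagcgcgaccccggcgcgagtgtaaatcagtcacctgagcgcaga

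The ZBTB20 window held 5 matches to CCAAT, the box bound by NF-Y, and 3 to GGGCGG, the GC box bound by SP1. The PLCL1 window held CCAAT at 2 places and the BNC2 window neither motif. None of the 3 windows held TGATGNAAT, the composite ATF4 and C/EBP element, TGACGTCA, the cyclic AMP response element, or TGANTCA, the AP-1 site. Among 35116 windows of 250 bases these were present in 0.888%, 1.65% and 6.57%, CCAAT in 32.0% and GGGCGG in 42.6%, so most windows lack each of the first 3. The BNC2 window has 77 bases, and among windows of that length CCAAT was present in 14.1%, GGGCGG in 27.2% and the other motifs in 0.347%, 0.971% and 2.08%. Those windows are the 77 bases nearest each start, while the BNC2 bases lie farther from its start, so the positions differ. TATAAA, the TATA box, was searched as well and had no match in the 3 windows. It was present in 10.7% of windows of 250 bases and 4.26% of those of 77.

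SOX6 was lower after antimycin in the first 4 lines and close to its vehicle level in dMTS-DELE1 cells. In WT cells the vehicle libraries held 5.89, 5.85, 4.39 and 5.74 CPM and the antimycin libraries 4.25, 4.56, 4.18 and 3.47 CPM. These overlapped through the third vehicle library. KO-vector libraries held 3.37, 4.81, 4.69 and 4.47 CPM in vehicle and 2.70, 2.47, 2.26 and 2.60 CPM in antimycin. The libraries labelled SLC25A12-WT held 6.26, 6.53, 5.87 and 5.98 CPM in vehicle and 3.88, 4.09, 4.73 and 4.39 CPM in antimycin. Neither of these lines had overlap between treatments. In F137S cells SOX6 went from 6.03, 5.59, 5.39 and 4.31 CPM to 2.32, 2.39, 2.17 and 2.64 CPM, with every antimycin library below every vehicle library. In dMTS-DELE1 cells it held 4.98, 5.82, 5.47 and 6.55 CPM in vehicle and 5.55, 4.30, 6.08 and 5.02 CPM in antimycin, and the groups overlapped. The antimycin mean was 75.2% of the vehicle mean in WT cells, 57.8% in KO-vector cells, 69.3% in the libraries labelled SLC25A12-WT, 44.6% in F137S cells and 91.8% in those with dMTS-DELE1. The log2 fold changes were -0.41 ± 0.121 (SE), -0.79 ± 0.128, -0.53 ± 0.119, -1.16 ± 0.127 and -0.12 ± 0.117 in the same order. The difference of response between dMTS-DELE1 and F137S cells was 1.04 ± 0.173. By mean level SOX6 was highest in the labelled libraries in vehicle, at 6.16 CPM, and lowest in F137S cells in antimycin, at 2.38 CPM. Next above that minimum stood KO-vector cells in antimycin, at 2.51 CPM, and the libraries of these 2 groups overlapped.

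ZBTB20 was lower after antimycin in the first 4 lines and higher in dMTS-DELE1 cells. WT libraries held 2.98, 3.12, 3.46 and 2.22 CPM in vehicle and 1.71, 1.84, 1.99 and 1.65 CPM in antimycin. KO-vector libraries held 3.27, 3.14, 2.71 and 2.71 CPM in vehicle and 1.77, 2.102, 3.00 and 2.42 CPM in antimycin. The treatments were apart in WT cells and overlapped in KO-vector cells through 1 antimycin library. The labelled libraries went from 3.30, 2.55, 2.49 and 2.84 CPM to 2.16, 2.13, 2.01 and 1.97 CPM, without overlap. Its F137S libraries held 3.46, 3.17, 4.28 and 4.09 CPM in vehicle and 2.81, 2.27, 2.78 and 2.27 CPM in antimycin, without overlap. Its dMTS-DELE1 libraries held 7.06, 5.95, 5.79 and 5.79 CPM in vehicle and 7.36, 7.87, 7.98 and 7.89 CPM in antimycin, again without overlap but in the other direction. The dMTS-DELE1 cells thus had the highest ZBTB20 levels of all lines in either treatment, 6.15 CPM in vehicle and 7.78 CPM in antimycin as means. Elsewhere the means lay between 1.80 and 3.75 CPM. The log2 fold changes were -0.71 ± 0.146 in WT cells, -0.35 ± 0.14 in KO-vector cells, -0.44 ± 0.144 in the libraries labelled SLC25A12-WT, -0.57 ± 0.136 in F137S cells and 0.34 ± 0.121 in those with dMTS-DELE1. The difference of response between dMTS-DELE1 and F137S cells was 0.91 ± 0.182.

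BNC2 was the exception among the 4 genes. Its antimycin libraries lay below its vehicle libraries in all 5 lines. In WT cells it went from 5.20, 5.38, 5.33 and 3.75 CPM to 1.67, 1.78, 1.90 and 2.14 CPM. In KO-vector cells it went from 4.00, 5.03, 4.35 and 3.46 CPM to 1.49, 1.52, 1.52 and 1.55 CPM. The KO-vector antimycin libraries were the most alike of any BNC2 group. The labelled libraries went from 4.56, 4.37, 4.25 and 4.56 CPM to 1.87, 2.38, 2.27 and 2.55 CPM, and F137S libraries from 3.78, 3.55, 3.33 and 4.53 CPM to 1.36, 1.87, 1.95 and 1.12 CPM. In dMTS-DELE1 cells it went from 3.12, 3.32, 4.18 and 3.35 CPM to 1.75, 1.91, 1.22 and 2.40 CPM. The log2 fold changes were -1.39 ± 0.155, -1.47 ± 0.159, -0.97 ± 0.152, -1.27 ± 0.16 and -0.94 ± 0.158 in the order WT, KO-vector, labelled, F137S and dMTS-DELE1. The antimycin mean was 38.1%, 36.0%, 51.1%, 41.4% and 52.1% of vehicle in WT, KO-vector, labelled SLC25A12-WT, F137S and dMTS-DELE1 cells. The difference of response between dMTS-DELE1 and F137S cells was 0.33 ± 0.225 log2, with a 95% interval of -0.11 to 0.772. The intervals were 0.699 to 1.38 for SOX6, 0.549 to 1.26 for ZBTB20 and 0.368 to 1.22 for PLCL1. All 4 are a description, and those of BNC2 and PLCL1 overlap widely. With 1 library left out the BNC2 difference ran from 0.15 to 0.46. It was 0.21 without vehicle replicate 4 of F137S cells, 0.18 without their antimycin replicate 4 and 0.15 without antimycin replicate 4 of the dMTS-DELE1 line.

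PLCL1 had its most negative response in KO-vector cells and none beyond the spread between libraries in dMTS-DELE1 cells. WT libraries held 3.04, 2.23, 2.83 and 2.29 CPM in vehicle and 1.51, 2.62, 1.96 and 1.98 CPM in antimycin, and overlapped. KO-vector libraries went from 3.05, 3.71, 2.74 and 2.74 CPM to 1.18, 1.64, 1.64 and 1.61 CPM, without overlap. The labelled libraries held 2.33, 2.92, 2.72 and 2.78 CPM in vehicle and 1.68, 2.61, 1.88 and 2.71 CPM in antimycin, and overlapped. Reduced levels without overlap returned in F137S cells, from 2.70, 3.27, 4.31 and 3.40 CPM to 1.88, 2.02, 2.40 and 2.08 CPM. The dMTS-DELE1 libraries held 2.68, 3.45, 3.96 and 3.80 CPM in vehicle and 3.81, 3.70, 3.77 and 3.49 CPM in antimycin, and overlapped. The log2 fold changes were -0.36 ± 0.164, -1.01 ± 0.166, -0.28 ± 0.162, -0.71 ± 0.159 and 0.09 ± 0.15 in WT, KO-vector, labelled SLC25A12-WT, F137S and dMTS-DELE1 cells. The difference of response between the last of these and F137S cells was 0.80 ± 0.218. In bulk RNA, fewer cells with a transcript and less of it per cell cannot be told apart.

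**Figure D1:**
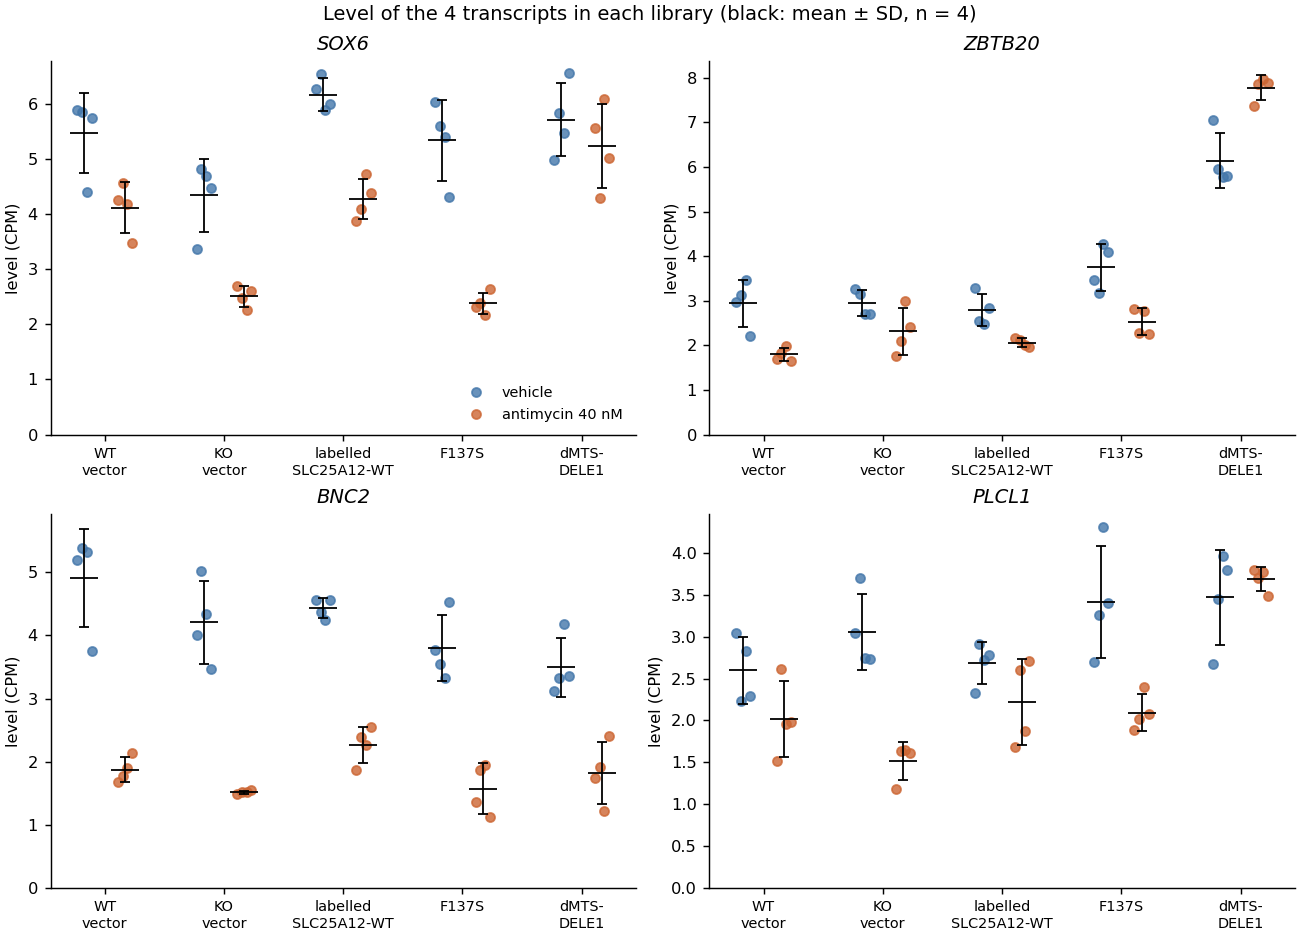
Level of each of the 4 transcripts in CPM (vertical axis) in each library, by line (horizontal axis) and treatment, with the mean and SD (n = 4) in black. BNC2 is lower after antimycin in every line, while in dMTS-DELE1 cells the antimycin libraries of SOX6 and PLCL1 overlap the vehicle libraries and those of ZBTB20 lie above.

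Counted over the genes, every antimycin library lay below every vehicle library for 2 of the 4 genes in WT cells, 3 in KO-vector cells, 3 in the libraries labelled SLC25A12-WT, 4 in F137S cells and 1 in those with dMTS-DELE1. Among all tested genes the share was 24.0% in WT cells, 22.5% in KO-vector cells, 24.0% in the labelled libraries, 22.0% in F137S cells and 15.4% in those with dMTS-DELE1. The choice of the genes used these comparisons, so nothing is read from the counts. For 1 gene, ZBTB20, every antimycin library lay above in dMTS-DELE1 cells, against 14.3% of all tested genes.

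**Figure D2:**
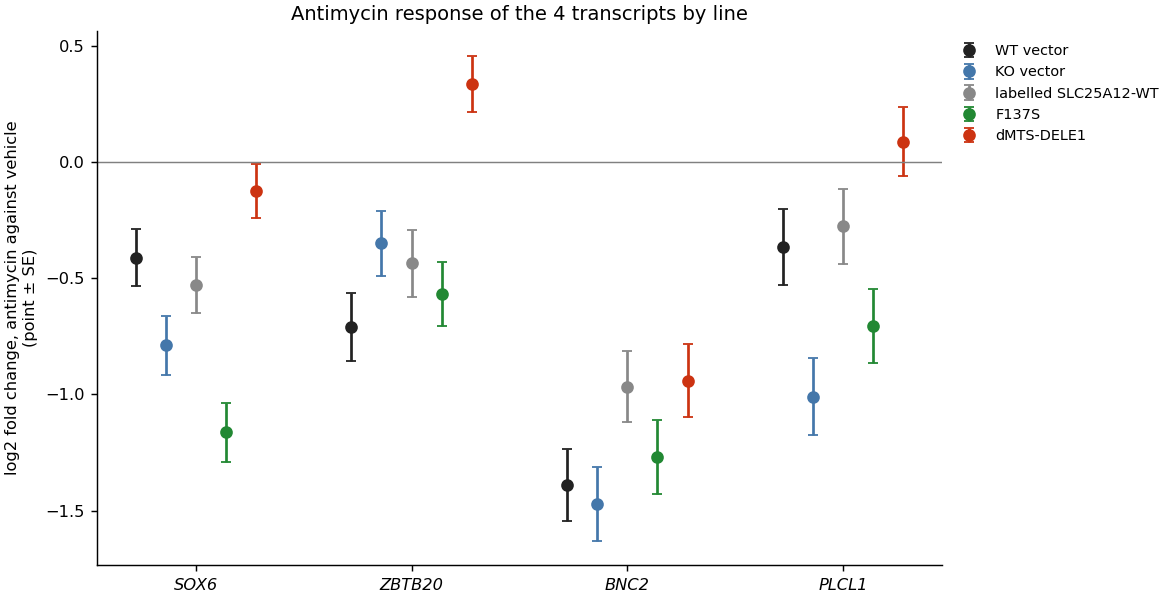
log2 fold change of antimycin against vehicle (point ± SE) for each gene and line, from the fit over all 40 libraries. The dMTS-DELE1 values of SOX6, ZBTB20 and PLCL1 lie at -0.12, 0.34 and 0.09, and that of BNC2 at -0.94.

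The level of each gene was also compared between lines as an average over both treatments. For dMTS-DELE1 against F137S cells this average takes in the antimycin libraries by which the genes were chosen, so it is a description without a test. SOX6, ZBTB20 and PLCL1 stood higher in dMTS-DELE1 cells by 0.62 ± 0.0865 (SE), 1.17 ± 0.0911 and 0.42 ± 0.109 log2. BNC2 stood at 0.05 ± 0.112, with a 95% interval of -0.174 to 0.265. Of all tested genes, 27.1% were called higher and 31.8% lower between these lines, so a difference was common.

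The treatments contributed unequally. In antimycin the dMTS-DELE1 mean was 2.20 times the F137S mean for SOX6, 3.07 times for ZBTB20 and 1.76 times for PLCL1. In vehicle the ratio was 1.07 for SOX6 and 1.02 for PLCL1, with overlap, and 1.64 for ZBTB20. The choice of the genes used the antimycin values, so these ratios are a description. Of 35 integrated stress response genes, 32 were called higher and 2 lower in dMTS-DELE1 than in F137S cells on the same average, with a median of 0.62 against -0.0197 for all tested genes, and their part in the levels of the 4 genes was not tested.

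The lines without dMTS-DELE1 were tested against each other, since a difference of level between them was not used to choose the genes. These averages also take in antimycin libraries whose fall was used in the choice, which limits the tests. SOX6 was lower in KO-vector than in WT cells, at -0.52 ± 0.0881 log2 (adjusted p = 3.02e-07). Its KO-vector mean was 0.61 times the WT mean in antimycin and 0.793 times in vehicle, where the libraries overlapped. BNC2 was lower too, at -0.26 ± 0.112 (adjusted p = 0.0369). That call was lost without the filter on low counts (adjusted p = 0.0562) and on leaving out any 1 of 6 libraries: vehicle replicates 1, 2 and 3 and antimycin replicate 4 of WT cells, and vehicle replicates 1 and 4 of KO-vector cells, with an adjusted p of up to 0.0813. ZBTB20 differed by 0.19 ± 0.101 (adjusted p = 0.109) and PLCL1 by -0.09 ± 0.117 (adjusted p = 0.547). ZBTB20 passed at an adjusted p of 0.0436 without antimycin replicate 1 of KO-vector cells. Of all tested genes 30.4% were called lower and 28.5% higher.

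Between F137S and KO-vector cells none of the 4 genes was called, with adjusted p from 0.413 to 0.959, and 0.364% of all genes were. PLCL1 differed most, by 0.31 ± 0.115 log2 with a 95% interval of 0.0865 to 0.537. Between the libraries labelled SLC25A12-WT and WT cells none was called by edgeR (adjusted p = 0.994 for each), with 0.0% of all genes called. There, 858 genes had an unadjusted p under 0.05 and DESeq2 called 3.

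**Figure D3:**
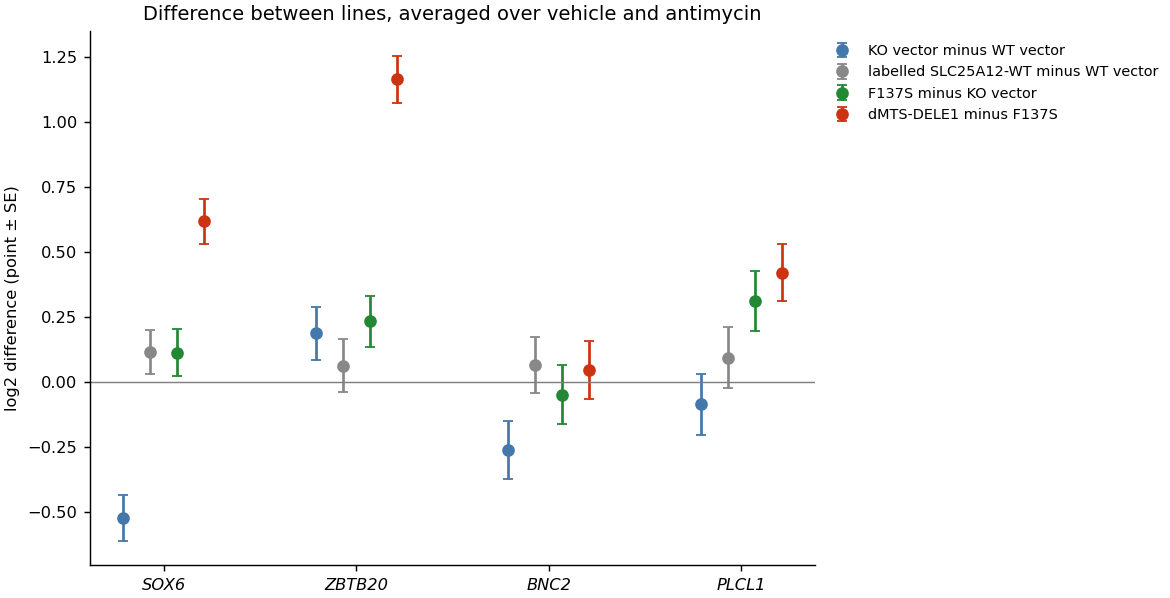
log2 difference between lines averaged over vehicle and antimycin (point ± SE) for each gene and pair of lines. ZBTB20, SOX6 and PLCL1 stand at 1.17, 0.62 and 0.42 for dMTS-DELE1 minus F137S, and BNC2 at 0.05.

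Long genes in general had lower levels after antimycin. Among the 620 genes of 300 kb or more, without the 4 described here, 56.3% were called lower in WT cells, 55.8% in KO-vector cells, 55.6% in the labelled libraries, 53.1% in F137S cells and 35.8% in those with dMTS-DELE1. The calls for lower levels among all tested genes were 26.4%, 24.7%, 26.4%, 24.9% and 17.3%. The medians of the long genes were -0.28 ± 0.0198 log2 (SD over the 4 antimycin libraries), -0.29 ± 0.0192, -0.30 ± 0.00862, -0.27 ± 0.0105 and -0.12 ± 0.00467. Genes under 10 kb had medians of 0.04, 0.07, 0.06, 0.07 and 0.02. The response of 164 of the 620 long genes was called more positive in dMTS-DELE1 than in F137S cells and that of 1 more negative, against 8.24% and 3.69% of all tested genes.

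**Figure D4:**
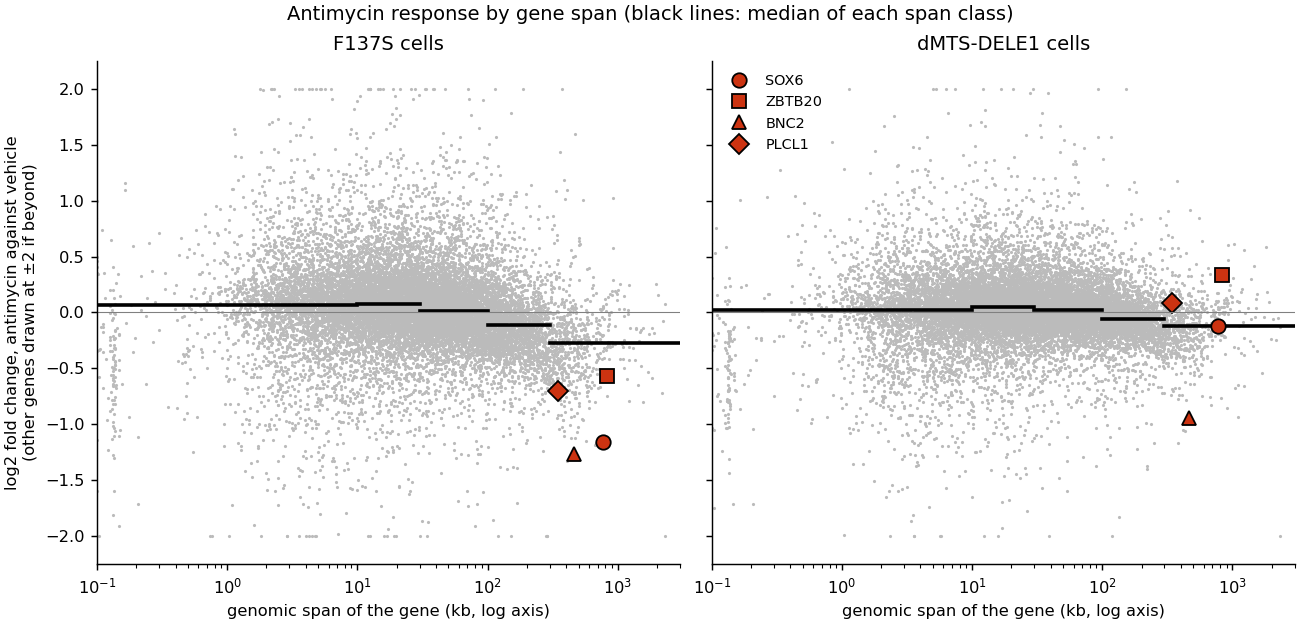
Antimycin response (log2 fold change, vertical axis) of every tested gene against its genomic span (kb, log axis) in the F137S line and the dMTS-DELE1 line, with the class medians as black lines and the 4 genes in red. In the dMTS-DELE1 panel the median of genes of 300 kb or more is -0.12, with SOX6 close to it, ZBTB20 and PLCL1 above it and BNC2 below it at -0.94.

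**Figure D5:**
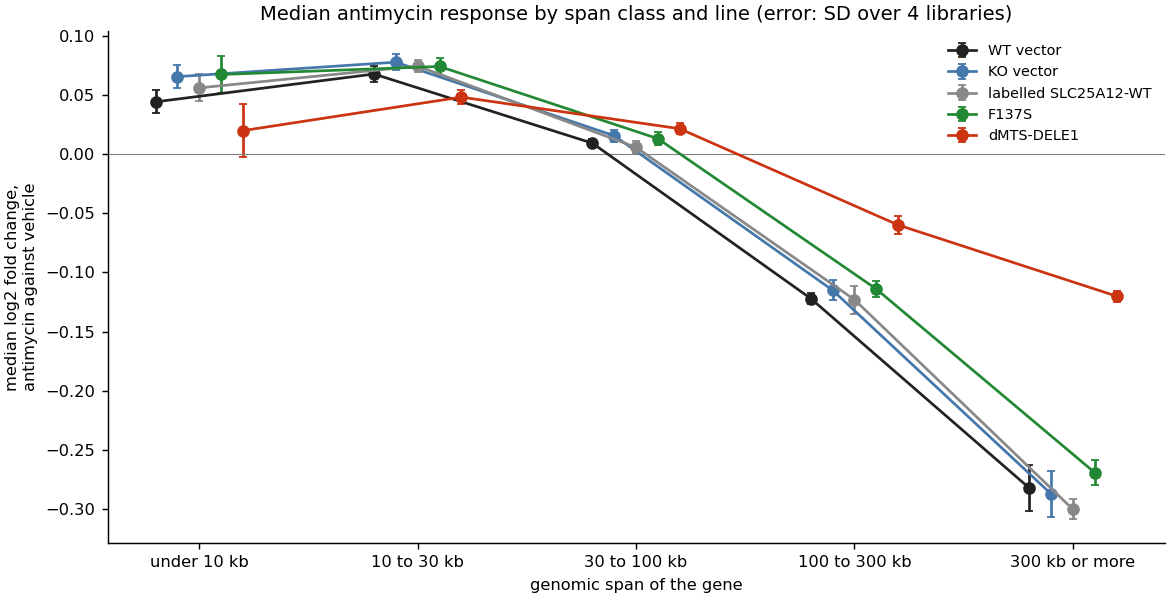
Median log2 fold change of antimycin against vehicle by class of genomic span, with a line for each cell line and the SD over 4 libraries as error. The class of 300 kb or more lies at -0.27 to -0.30 in 4 lines and at -0.12 in dMTS-DELE1 cells.

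Set beside genes within 1.5 times their own span, BNC2 was low in every line. Of 483 such genes, 1 had a more negative value in WT cells, 1 in KO-vector cells, 20 in the labelled libraries, 1 in F137S cells and 3 in the dMTS-DELE1 line. The difference of response of BNC2 exceeded that of 379 of the 483. That of SOX6 exceeded 188 of 189 genes of like span, that of ZBTB20 164 of 164 and that of PLCL1 732 of 744. These ranks follow from the choice of the genes and are a description.

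Genes that encode other transcription factors and have a large span, a list of 50 chosen as long genes with 49 tested, were called lower for 40 in WT cells, 40 in KO-vector cells, 41 in the labelled libraries, 38 in F137S cells and 25 in those with dMTS-DELE1. Their medians were -0.45, -0.43, -0.42, -0.43 and -0.23 log2. The difference of response between dMTS-DELE1 and F137S cells was called more positive for 19 of the 49 and more negative for 0. It was not called for the other 30. Among all tested genes 8.24% were called more positive and 3.69% more negative. CUX1, a homeodomain factor, fell by 0.53 ± 0.0338 in F137S cells (adjusted p = 1.25e-23) and by 0.23 ± 0.033 in dMTS-DELE1 cells (adjusted p = 2.06e-08). TCF12, an E protein, fell by 0.34 ± 0.0414 in F137S cells (adjusted p = 3.89e-11) and stood at -0.01 ± 0.0397 in dMTS-DELE1 cells (adjusted p = 0.824).

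The families of the 4 genes did not share one direction. Among all tested genes 25.5% rose and 26.4% fell in WT cells, and 26.3% rose and 24.9% fell in F137S cells. Of 12 other SOX genes tested, 5 rose and 1 fell in WT cells, and 6 rose and 1 fell in F137S cells. SOX5, the SOXD paralog that pairs with SOX6 in cartilage, was the 1 that fell, by 1.00 ± 0.166 in WT cells (adjusted p = 4.55e-07). It stood at -0.31 ± 0.165 in dMTS-DELE1 cells (adjusted p = 0.138), and its difference of response was 0.11 ± 0.233 (adjusted p = 0.84). SOX13, the third SOXD gene, stood at 0.04 ± 0.0592 in WT cells (adjusted p = 0.63). SOX4 rose by 0.51 ± 0.0296 there (adjusted p = 4.88e-26).

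Of 43 other ZBTB genes tested, 19 rose and 12 fell in WT cells, and 19 rose and 9 fell in F137S cells. For these and the lists below, the shares among all tested genes in WT cells were 25.5% higher and 26.4% lower. In F137S cells they were 26.3% and 24.9%. BCL6, a BTB and zinc finger repressor of germinal centre B cells, rose by 0.48 ± 0.0964 in WT cells (adjusted p = 1.64e-05) and by 0.54 ± 0.0961 in dMTS-DELE1 cells (adjusted p = 3.41e-06). BNC1, the paralog of BNC2, stood at 0.29 ± 0.165 in WT cells (adjusted p = 0.134). Of 12 phospholipase C genes tested, 5 rose and 5 fell in WT cells. PLCL2, the paralog of PLCL1, fell by 0.31 ± 0.0534 in WT cells (adjusted p = 7.41e-07) and by 0.30 ± 0.0529 in dMTS-DELE1 cells (adjusted p = 2.82e-06). Of 10 tested partners of PLCL1, 5 rose and 2 fell in WT cells. PPP2CA, a catalytic subunit of protein phosphatase 2A, was 1 of the 2 that fell, by 0.22 ± 0.0236 (adjusted p = 8.99e-13). Of 9 tested partners of SOX6, 1 rose and 4 fell in WT cells, and the corepressor CTBP2 fell by 0.26 ± 0.0269 (adjusted p = 5.74e-14).

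By the likeness of the 10 group means of log2 CPM, the genes most like the mean profile of the 4 were ARHGAP32 (r = 0.982), GRIP1 (0.982), CRCP (0.981), QKI (0.981) and EP300 (0.98). The most alike to a single gene were FNBP4 to SOX6 (r = 0.972), RIOK3 to ZBTB20 (0.995), LMX1B to BNC2 (0.993) and SLC39A9 to PLCL1 (0.959). Among the 4 genes themselves r ran from 0.151 for ZBTB20 with BNC2 to 0.816 for ZBTB20 with PLCL1. These are descriptions over 10 group means that share libraries by line and treatment.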

How the data were processed

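RNA from 40 libraries of HEK293T cells was analysed from the deposited table of raw counts per gene symbol, which the authors made with HISAT2 2.1.0 and featureCounts 2.0.6 on hg38, per the submitters' processing notes. For settings, annotation and strand the sources used here give nothing. Libraries were grouped by the label of each sample. Counts were filtered with filterByExpr, scaled by TMM and fitted with edgeR 4.0.16 (R 4.3.3, robust quasi-likelihood, 1 coefficient per group). Benjamini-Hochberg adjustment ran over the 16739 tested genes, with a call at an adjusted p < 0.05. log2 CPM values used a prior count of 2. Counts of the 4 genes ran from 36 to 256 per library, which limits their precision. Spans and promoter windows came from RefSeq on GRCh38.p14, and exons from GENCODE. The procedure was tried on simulated data. Changes were planted there only in the average level of the dMTS-DELE1 line, and none in an antimycin response or its difference between lines. The average difference between dMTS-DELE1 and F137S cells, planned as a test for the 4 genes, is given without one, since it holds libraries that chose them. The 4 genes and all lists were chosen with earlier results of these data known. Named genes were the 4 genes, SLC25A12, DELE1, close paralogs, up to 4 genes of each list by mean level, the most alike genes, and the 6 longest genes with a mean log2 CPM of at least 3. Alternatives were DESeq2 1.42.0, its size factors, no filter, counts halved, a replicate block, a fit of the compared groups alone, a prior count of 0.5, and each library left out.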

Additional observations from a re-analysis of the deposited data

Results flagged for a closer look

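A library stood far from the other 3 of its group in 4 of the 40 groups of 4 libraries examined by Dixon's gap ratio, and chance gives about 1 in 20. SOX6 was lowest in 1 WT vehicle library at 4.39 CPM. ZBTB20 was highest in 1 dMTS-DELE1 vehicle library at 7.06 CPM. BNC2 was lowest in 1 WT vehicle library at 3.75 CPM. PLCL1 was lowest in 1 KO-vector antimycin library at 1.18 CPM.

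The antimycin response of 8 named genes outside the 4 differed between dMTS-DELE1 and F137S cells in edgeR's test of the difference. It was more positive in dMTS-DELE1 cells for CUX1 by 0.30 ± 0.0472 log2 (adjusted p = 1.63e-06), FOXN3 by 0.24 ± 0.0562 (adjusted p = 0.00192), TCF12 by 0.33 ± 0.0574 (adjusted p = 1.51e-05), TEAD1 by 0.27 ± 0.0478 (adjusted p = 2.49e-05), PPP1CC by 0.092 ± 0.0267 (adjusted p = 0.0135) and ZBTB44 by 0.12 ± 0.0369 (adjusted p = 0.0219). For PLCB3 the difference was -0.19 ± 0.054 (adjusted p = 0.0111) and for PLCD3 -0.22 ± 0.0659 (adjusted p = 0.0163).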

How the results depend on the processing

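No value of the 4 genes that had been called changed direction under the alternatives. With 1 library left out, the antimycin response moved by over 1.5 times for PLCL1 in WT cells (-0.36, and -0.23 without antimycin replicate 1), PLCL1 in the labelled libraries (-0.28, and -0.15 without antimycin replicate 1) and ZBTB20 in KO-vector cells (-0.35, and -0.23 without antimycin replicate 1). In the dMTS-DELE1 line it ran from -0.21 (without antimycin replicate 3) to -0.05 (without vehicle replicate 4 or antimycin replicate 2) for SOX6, and from -0.03 (without vehicle replicate 1) to 0.16 (without vehicle replicate 3) for PLCL1. The difference of BNC2 between KO-vector and WT cells was -0.25 and no longer called without the filter on low counts, and ran from -0.32 to -0.23 with 1 library left out. That of ZBTB20 ran from 0.10 to 0.23. DESeq2 called 3 genes between the libraries labelled SLC25A12-WT and WT cells, where edgeR called 0. The median response of genes of 300 kb or more moved by more than the spread between libraries at a mean log2 CPM of at least 3, to -0.34 in WT cells, -0.33 in KO-vector cells, -0.34 in the labelled libraries, -0.33 in F137S cells and -0.14 in those with dMTS-DELE1. In the labelled libraries it was -0.29 with DESeq2 size factors, -0.31 with counts halved and -0.29 with DESeq2. In F137S cells it was -0.28 with counts halved and -0.29 with the compared groups alone. In dMTS-DELE1 cells it was -0.11 with DESeq2 size factors, -0.13 with counts halved, -0.13 with the compared groups alone and -0.11 with DESeq2. With 1 library left out it ran from -0.30 to -0.26 in WT cells, -0.30 to -0.27 in the labelled libraries, -0.27 to -0.25 in F137S cells and -0.14 to -0.11 in dMTS-DELE1 cells. The cause was not tested. Between same-numbered libraries the mean residual correlation was -0.00102 (range -0.0588 to 0.051), so the numbers do not pair the libraries. With the replicate block the line difference of SOX6 between dMTS-DELE1 and F137S cells was 0.62, and the block changed no call for the 4 genes.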

Other observations

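The longest genes differed among themselves in response. DMD, which encodes dystrophin and spans 2220 kb, fell by 0.21 ± 0.0591 log2 in WT cells (adjusted p = 0.00201) and stood at -0.07 ± 0.0578 in F137S cells (adjusted p = 0.288). NRXN3, a presynaptic adhesion protein gene of 1698 kb, fell by 0.53 ± 0.0995 in F137S cells (adjusted p = 5.08e-06) and by 0.54 ± 0.103 in dMTS-DELE1 cells (adjusted p = 1.43e-05). FHIT, of 1504 kb, was not called in any line, at 0.02 ± 0.0867 in WT cells (adjusted p = 0.875). GALNT13, of 1388 kb, fell by 0.25 ± 0.0458 in WT cells (adjusted p = 2.9e-06). It was called lower in every line except dMTS-DELE1, at -0.06 ± 0.0467 (adjusted p = 0.375). TENM3, of 1355 kb, was called lower in every line. It fell by 0.49 ± 0.0492 in WT cells (adjusted p = 4.69e-14) and by 0.26 ± 0.0493 in dMTS-DELE1 cells (adjusted p = 1.6e-05). PRKG1, a cyclic GMP-dependent kinase gene of 1307 kb, fell by 0.32 ± 0.0773 in F137S cells (adjusted p = 0.000317) and stood at 0.04 ± 0.077 in dMTS-DELE1 cells (adjusted p = 0.725), with a difference of response of 0.36 ± 0.109 (adjusted p = 0.0178).

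C11orf58, whose start lies 0.17 kb from that of SOX6 and which was named after its values were seen, fell by 0.18 log2 in WT cells and by 0.07 in dMTS-DELE1 cells (adjusted p = 5.32e-11 and 0.00465), and its difference of response was 0.07 (adjusted p = 0.107).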
